A study of Homo sapiens with 8 samples.

Results

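The genes described here are the 10 enzymes of purine and pyrimidine synthesis taken by name from the rows of the deposited RNA table: PPAT, GART, PAICS, PFAS, ADSL, ATIC and IMPDH2 for purines, and CAD, DHODH and UMPS for pyrimidines. All 10 had a row among the 18892 genes of the table, and all 10 were among the 11833 genes with at least 1 RPM (reads of a gene relative to a fixed library total) in at least 2 of 4 libraries. After knockdown of CDCA8, 6 of them fell, 1 rose and 3 were not called, where 47.6% of all tested genes fell and 18.8% rose. PFAS and CAD fell most, as the mean RPM of PFAS dropped by 59.0% and that of CAD dropped by 57.1% as deposited, and PPAT, the first enzyme of the purine route, rose.

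The libraries came from C4-2, an androgen-independent derivative of the established prostate cancer line LNCaP. PolyA RNA was sequenced from 2 libraries of cells carrying a control short hairpin RNA (shCTRL) and 2 libraries of cells carrying a hairpin against CDCA8 (shCDCA8), the gene of borealin, which helps to place the Aurora B kinase on mitotic chromosomes. No other treatment is labelled. The labels describe 2 RNA extraction kits and both Illumina and DNBseq preparation, without saying which libraries each covers. The titles name the target gene, but not how many hairpins were used or whether both replicates carry the same one. Loss of CDCA8 and other effects of a hairpin therefore cannot be told apart. The labels do not say whether replicates were separate cultures, so each p-value measures only the spread between these libraries, which may be technical. The rest of the series, small RNA libraries of shCTRL and shEZH2 cells, holds no row for these genes and was not used here.

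Cells make purines by building the ring step by step on ribose phosphate. PPAT commits phosphoribosyl pyrophosphate to the route, the multifunctional GART and then PFAS, PAICS, ADSL and the bifunctional ATIC carry it to inosine monophosphate, and ADSL acts a further time on the way to AMP, while IMPDH2 opens the branch to GMP. Pyrimidines are built as a free ring: CAD joins the opening steps in a single protein, DHODH oxidises the ring at the inner mitochondrial membrane and UMPS attaches the ribose phosphate and finishes UMP. Dividing cells rely on both routes for RNA, DNA and sugar nucleotides, and MYC, which binds the E-box sequence CACGTG together with MAX, and ATF4 are known activators of genes in and around them.

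PPAT and PAICS are neighbours transcribed in opposite directions, and the stretch between the PPAT start and 1 of the 3 PAICS starts in the RefSeq table is shown because PPAT was called higher and PAICS was not called. The gene-level values do not say which PAICS start was used. The stretch spans 136 bases at chr4:56435616-56435751 (GRCh38.p14, plus strand, RefSeq), where this PAICS start lies on the right and that of PPAT on the left, and 75% of its bases are G or C. Capitals mark GGGCGG, the GC box, searched on both strands and present 3 times. The same letters occur in 35.6% of 35116 RefSeq windows of that length before a start.
PPAT-PAICS stretch: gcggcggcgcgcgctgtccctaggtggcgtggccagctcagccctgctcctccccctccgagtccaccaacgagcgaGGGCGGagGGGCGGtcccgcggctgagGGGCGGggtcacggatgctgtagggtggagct

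RefSeq promoters, each running from 250 bases before to 50 after a start, were matched for 8 of the 10 genes. CACGTG, which reads the same on both strands, was found in 4 of these 8 (PPAT, PAICS, ATIC and DHODH) against 8.77% of 27305 genes with a promoter in the table. The 30-base windows below are shown with CACGTG in capitals, in the direction of the named gene. The PPAT site lies 182 bases before its start at chr4:56435780-56435809 on the minus strand, and the same letters fall 40 bases after a start of PAICS. PPAT and PAICS are thus counted through the same site, and the promoters of the other PAICS starts hold none. The ATIC sites lie 46 bases before and 29 bases after the start, at chr2:215312001-215312030 and chr2:215312076-215312105 on the plus strand. The DHODH site lies 159 bases before the start at chr16:72008573-72008602 on the plus strand.
PPAT: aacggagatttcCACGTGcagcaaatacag
ATIC, before the start: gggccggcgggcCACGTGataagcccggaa
ATIC, after the start: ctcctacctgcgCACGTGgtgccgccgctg
DHODH: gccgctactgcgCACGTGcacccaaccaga

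The genes that hold these letters included 1 that rose (PPAT), 1 that fell (DHODH) and 2 that were not called (PAICS and ATIC). The composite element TGATGNAA, bound by ATF4 with C/EBP partners, was searched on both strands and found in 0 of the 8 genes, against 4.46% of all genes. A match of letters is a description of the window and not evidence of binding.

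CDCA8 stood at 14.2 and 16.5 RPM with shCTRL against 3.98 and 3.94 RPM with shCDCA8, so the libraries matched their labels. All 9 prostate epithelium markers passed the filter, with 6 lower and 2 higher after knockdown, against 47.6% and 18.8% of all tested genes. Their summed level was 3757 and 3915 RPM in the controls against 1932 and 2035 RPM after knockdown. Of 9 markers of leukocytes, endothelium, fibroblasts and basal epithelium, 3 passed the filter. The summed level of those 3 was 17.4 and 20.8 RPM in the controls against 6.99 and 8.08 RPM after knockdown, with COL1A1 (fibroblasts) and VWF (endothelium) lower after knockdown and KRT14 (basal epithelium) not called. VWF stood at 5.23 and 6.47 RPM in the controls and at 1.36 and 1.84 RPM after knockdown, while PECAM1, another endothelial marker, was at or below 0.0375 RPM in every library. The part of these markers in the results below was not tested. In bulk RNA, fewer cells of a type and less RNA per cell cannot be told apart. The whole table also shifted: gene rows took 41.1% and 43.6% of the library total in shCTRL but 33.3% and 34.2% in shCDCA8, and the median log2 fold change over all tested genes was -0.27. Fold changes are therefore given as deposited and after median-ratio scaling, which sets the libraries to a common median gene and puts that median at 0.0058.

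A call is an adjusted p under 0.05 in limma on log2(RPM + 1), with Benjamini-Hochberg adjustment over all 11833 genes. The scale understates the change of low genes. Among all tested genes 66.4% were called as deposited (47.6% lower and 18.8% higher), and 66.8% after median-ratio scaling (33.6% lower and 33.2% higher). Against that background, 6 of the 10 enzymes fell and 1 rose as deposited, and 6 fell and 3 rose after scaling. The same 6 genes fell and PPAT rose under both. The median log2 fold change of the 10 enzymes was -0.54 as deposited and -0.23 after scaling. The groups did not overlap for 8 of the 10 genes as deposited, against 83.2% of all genes, and for 10 of the 10 after scaling, against 84.2%. With 10 genes, no difference between the enzymes and the table was tested, and what follows concerns the individual enzymes.

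**Figure D1:**
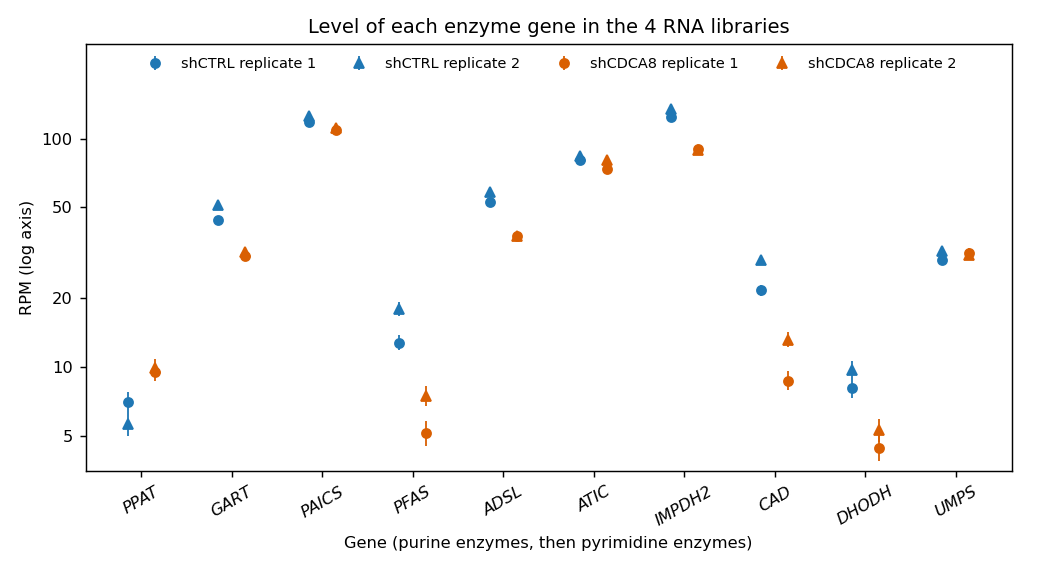
RPM of each enzyme gene on a log axis in the 2 shCTRL (blue) and 2 shCDCA8 (orange) libraries, circles for replicate 1 and triangles for replicate 2. Bars are exact 95% Poisson intervals for counting error only. PFAS, CAD and DHODH lie lower in both shCDCA8 libraries and PPAT lies higher, while ATIC and UMPS overlap between the groups.

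PPAT encodes amidophosphoribosyltransferase, the committed and feedback-regulated step of purine synthesis. It stood at 7.03 and 5.65 RPM in the controls and at 9.49 and 9.93 RPM in shCDCA8, from 264 to 549 reads per library. Both knockdown libraries were above both controls, and it was the only one of the 10 enzymes that rose as deposited. The log2 fold change was 0.55 ± 0.141 (SE, n = 2 against 2, limma adjusted p = 0.0044) and 0.83 ± 0.143 after median-ratio scaling (limma adjusted p = 0.00112). On the recovered reads edgeR gave 0.91 (adjusted p = 0.00194). Of all tested genes, 89.4% had a lower log2 fold change. The controls differed from each other by -0.27 on the log2 scale (replicate 2 minus replicate 1), the reverse of the direction in the other 9 enzymes.

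PFAS, which uses glutamine to make the formylglycinamidine intermediate, went the opposite way within the same route. It stood at 12.8 and 18.0 RPM in the controls and at 5.13 and 7.49 RPM in shCDCA8. The groups were well apart, although replicate 2 was the higher library in each. The log2 fold change was -1.17 ± 0.185 (SE, n = 2 against 2, limma adjusted p = 0.000157), and -0.89 ± 0.178 after median-ratio scaling (limma adjusted p = 0.00244). Only 10.4% of tested genes had a lower log2 fold change as deposited. In RefSeq the PFAS gene model overlaps that of CTC1, a telomere maintenance gene that rose by 0.66 on the log2 scale (limma adjusted p = 0.00373).

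GART, whose protein carries several early activities of the route, stood at 43.9 and 51.3 RPM in shCTRL and at 30.8 and 31.9 RPM in shCDCA8. ADSL, adenylosuccinate lyase, stood at 52.6 and 58.2 RPM in shCTRL and at 37.3 and 37.4 RPM in shCDCA8. Both fell with no overlap between the groups, by 0.58 and 0.55 on the log2 scale (SE 0.114 and 0.106, limma adjusted p = 0.000747 and 0.000648). After median-ratio scaling, which removes the shift of the whole table, the log2 fold changes were -0.28 for GART and -0.25 for ADSL (limma adjusted p = 0.025 and 0.0301). With a single library left out, the scaled call of GART was kept only without shCTRL replicate 1. That of ADSL was kept only without shCDCA8 replicate 1. Without shCTRL replicate 2 the scaled log2 fold changes were -0.21 for GART and -0.22 for ADSL. The ADSL gene model overlaps that of SGSM3, which also fell (log2 fold change -1.01, limma adjusted p = 3.15e-05).

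PAICS and ATIC, which carry the later steps to inosine monophosphate, were not called. PAICS stood at 117.9 and 126.0 RPM in shCTRL and at 109.0 and 111.4 RPM in shCDCA8 (log2 fold change -0.14 ± 0.0939, limma adjusted p = 0.195). ATIC stood at 80.6 and 84.1 RPM in shCTRL and at 73.8 and 80.7 RPM in shCDCA8 (log2 fold change -0.09 ± 0.0997, limma adjusted p = 0.431). The PAICS groups were narrowly apart and the ATIC groups overlapped. After median-ratio scaling both pointed upward, to 0.17 for PAICS (limma adjusted p = 0.0758, not called) and 0.22 for ATIC (limma adjusted p = 0.035, called). With a single library left out, the ATIC call was kept only without shCDCA8 replicate 1 (log2 fold change 0.25). A direction for these 2 genes therefore rests on the scaling.

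IMPDH2, the inosine monophosphate dehydrogenase isozyme typical of dividing cells, stood at 124.7 and 134.5 RPM in shCTRL and at 90.1 and 89.1 RPM in shCDCA8. The groups were apart, and it fell by 0.53 on the log2 scale (SE 0.095, limma adjusted p = 0.000422). After median-ratio scaling its log2 fold change was -0.22 (limma adjusted p = 0.0345). With a single library left out, this call was kept only without shCDCA8 replicate 1 (-0.26). The value was -0.21 without shCTRL replicate 2. Its isozyme IMPDH1 stood at 73.7 and 84.2 RPM in shCTRL and at 70.1 and 82.1 RPM in shCDCA8. As deposited IMPDH1 was not called (log2 fold change -0.05, limma adjusted p = 0.696). After median-ratio scaling it was called higher (0.26, limma adjusted p = 0.0325). Between GART, ADSL and IMPDH2 the fold changes differed by less than the spread of the library pairs.

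CAD, the multifunctional protein that opens pyrimidine synthesis, stood at 21.7 and 29.4 RPM in shCTRL and at 8.73 and 13.2 RPM in shCDCA8. The lower control remained well above the higher knockdown library. The log2 fold change was -1.16 ± 0.184 (SE, n = 2 against 2, limma adjusted p = 0.000161), and -0.87 ± 0.177 after median-ratio scaling (limma adjusted p = 0.0026). DHODH, the mitochondrial dihydroorotate dehydrogenase, stood at 8.07 and 9.72 RPM in shCTRL and at 4.42 and 5.30 RPM in shCDCA8. It fell by 0.75 on the log2 scale (SE 0.146, limma adjusted p = 0.000697) and by 0.48 after scaling (limma adjusted p = 0.0116, and 0.0771 without shCDCA8 replicate 1).

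UMPS, which completes UMP, did not follow CAD and DHODH. It stood at 29.5 and 32.4 RPM in shCTRL and at 31.7 and 30.9 RPM in shCDCA8, with both knockdown libraries inside the control range (log2 fold change 0.02 ± 0.111, limma adjusted p = 0.891). After median-ratio scaling it was called higher, at 0.32 ± 0.0924 (limma adjusted p = 0.0138), but not without shCTRL replicate 1 (0.29, adjusted p = 0.0946) or without shCDCA8 replicate 1 (0.27, adjusted p = 0.0626). As deposited, the 3 pyrimidine enzymes thus ran from one of the largest falls of the 10 genes to a value near 0.

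**Figure D2:**
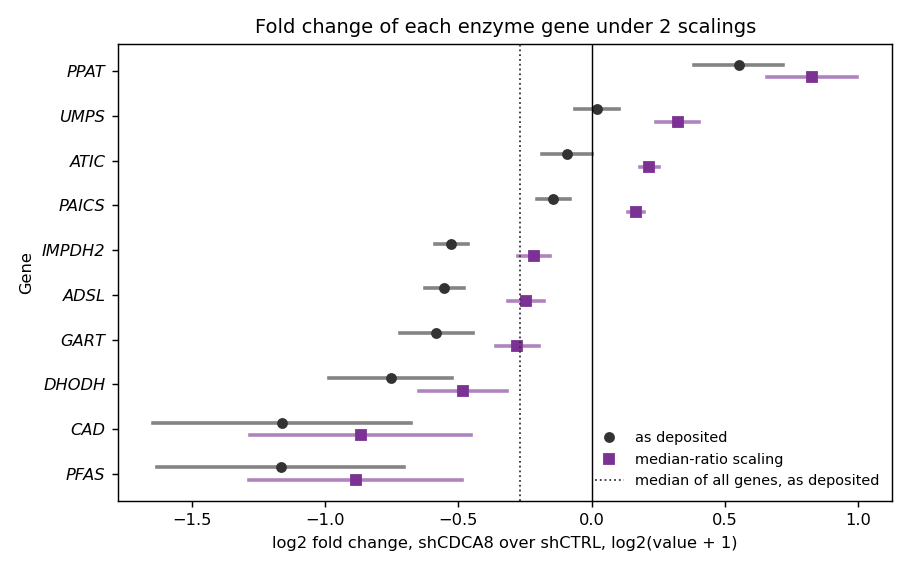
log2 fold change (x axis, log2(value + 1)) of each enzyme gene, as deposited (black circles) and after median-ratio scaling (purple squares). Lines span the 4 pairings of a knockdown with a control library, and the dotted line marks the median of all tested genes as deposited, -0.27. PFAS and CAD lie lowest and PPAT highest under both scalings, and PAICS and ATIC cross 0 between them.

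Ordered by fold change, the enzymes ran PFAS, CAD, DHODH, GART, ADSL, IMPDH2, PAICS, ATIC, UMPS and PPAT. For each gene the log2 differences of the 4 pairings of a knockdown with a control library were taken as its spread. Of the 9 neighbouring pairs in this order, 7 had overlapping spreads and 2 were separate. The first break lay between IMPDH2 (-0.59 to -0.46) and PAICS (-0.21 to -0.08), and the second between UMPS (-0.06 to 0.10) and PPAT (0.39 to 0.72). PFAS (-1.63 to -0.70) and CAD (-1.64 to -0.68) had the widest spreads.

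CAD and PFAS varied together between replicates as well as between groups. Replicate 2 exceeded replicate 1 by 0.42 and 0.46 on the log2 scale for CAD and PFAS in shCTRL, and by 0.54 and 0.47 in shCDCA8. By at least the smallest of these 4 differences, 24 of all tested genes (0.203%), CAD and PFAS among them, were higher in replicate 2 of both groups. That threshold was taken from CAD and PFAS themselves, so the small share is no independent support. Replicates are matched between the groups by number only. The ratio of CAD to PFAS inside a library stayed at 1.69 and 1.64 in shCTRL and 1.70 and 1.76 in shCDCA8. This pair was chosen after its values were seen, and what separates the replicates was not tested.

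Ratios of genes inside a library do not depend on how the libraries are scaled. Their absolute size depends on transcript length, so only their change between libraries is described. With 2 libraries against 2 an exact permutation test cannot give a p below 0.333, so the values stand without a test. The PPAT to PFAS ratio was 0.549 and 0.314 in shCTRL and 1.85 and 1.33 in shCDCA8, 3.68-fold higher on average. This pair, too, was chosen after its values were seen. The ratio of PPAT to its neighbour PAICS was 0.0597 and 0.0449 in shCTRL and 0.0871 and 0.0891 in shCDCA8, 1.69-fold higher. In RefSeq the PPAT and PAICS gene models overlap, 2 PPAT and 7 PAICS pseudogenes are listed, and the sources used here do not say whether the counting used strand, so reads of the pair may be split imperfectly.

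In the pyrimidine route the CAD to UMPS ratio was 0.734 and 0.908 in shCTRL and 0.275 and 0.426 in shCDCA8, or 0.427 of the control mean. The CAD to DHODH ratio shifted less, from 2.69 and 3.03 to 1.97 and 2.49. At the purine branch point the IMPDH2 to IMPDH1 ratio was 1.69 and 1.60 in shCTRL and 1.29 and 1.09 in shCDCA8. None of these pairs overlapped between the groups, but neither did the CAD to PFAS ratio. As deposited, 83.2% of single tested genes were also apart, so this does not mark out these pairs.

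**Figure D3:**
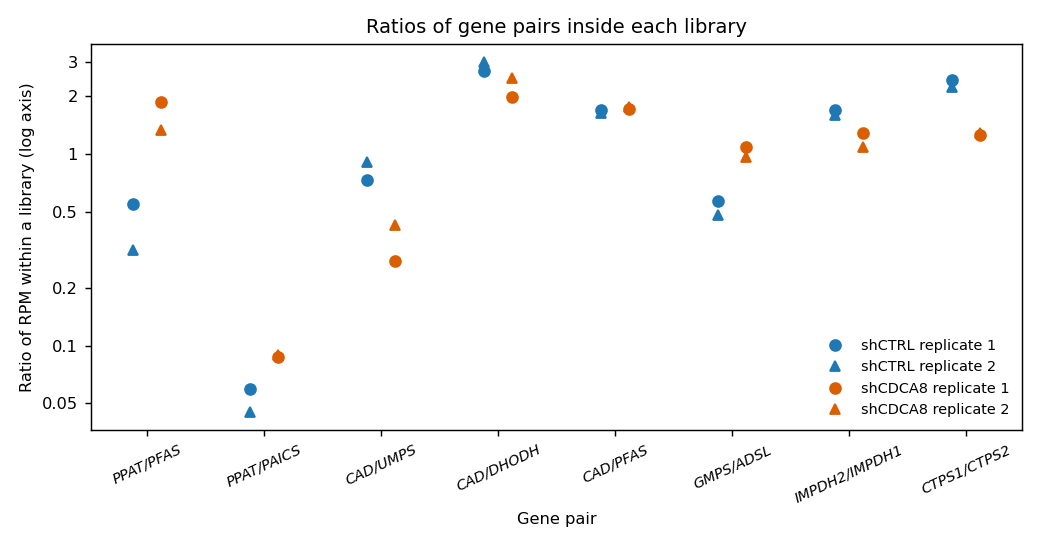
Ratio of the RPM of 2 genes inside each library (log axis), for shCTRL (blue) and shCDCA8 (orange), circles for replicate 1 and triangles for replicate 2. The PPAT to PFAS ratio lies between 0.314 and 0.549 in shCTRL and between 1.33 and 1.85 in shCDCA8, while the CAD to PFAS ratio stays between 1.64 and 1.76.

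A list of 10 other genes of purine and CTP synthesis gave 5 lower and 2 higher as deposited. After median-ratio scaling it gave 2 lower and 5 higher (median log2 fold change -0.19 as deposited and 0.12 scaled). Of all tested genes 47.6% were lower and 18.8% higher as deposited, and 33.6% and 33.2% after scaling. These shares also apply to the list counts below, and no list was tested against them. GMPS, which finishes GMP after IMPDH2, rose from 29.9 and 27.9 RPM to 40.4 and 35.9 RPM (log2 fold change 0.39, limma adjusted p = 0.0098). Its ratio to ADSL went from 0.569 and 0.480 to 1.08 and 0.959. PRPS1 and PRPS2, the synthetases that supply phosphoribosyl pyrophosphate to PPAT, fell by 1.04 and 1.24 on the log2 scale as deposited and by 0.74 and 0.96 after scaling, although reads of these close paralogs may be shared. Of the CTP synthetases, CTPS1 fell by 0.37 as deposited and CTPS2 rose by 0.44. After scaling CTPS2 kept its call (0.73) and CTPS1 did not (-0.08, limma adjusted p = 0.518). Without shCDCA8 replicate 1, 0 genes of the list were higher as deposited, and 1 was without shCTRL replicate 1 or 2. The count of lower genes was 3 without shCTRL replicate 2 or without shCDCA8 replicate 2. After scaling, the 5 higher genes became 2 without shCTRL replicate 2, and 3 without shCTRL replicate 1 or shCDCA8 replicate 1. ADSS, which leads to AMP ahead of ADSL, was not called as deposited (0.10) but was called higher after scaling (0.39, limma adjusted p = 0.0153).

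Salvage genes, which rebuild nucleotides from free bases and nucleosides, gave 8 lower and 1 higher of 13 tested (7 and 1 after scaling). APRT, the adenine salvage enzyme, fell from 142.3 and 142.6 RPM to 89.9 and 94.8 RPM. The mitochondrial thymidine kinase TK2 fell by 2.11 on the log2 scale, from 17.8 and 19.5 RPM to 3.52 and 3.56 RPM. The purine nucleoside phosphorylase PNP fell by 1.12, the cytosolic thymidine kinase TK1 by 1.27, and the adenosine kinase ADK was the 1 gene that rose (0.46). Without shCDCA8 replicate 1, 0 salvage genes were higher. UCK2, the uridine-cytidine kinase, fell by 0.29 as deposited and was at 0.01 after scaling.

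Nucleotide kinases, which raise monophosphates to di- and triphosphates, gave 5 lower and 4 higher of 12 tested (3 and 6 after scaling), with a median log2 fold change of 0.01 as deposited. The 3 lower genes after scaling became 1 without shCTRL replicate 1 or without shCDCA8 replicate 2. CMPK1, which phosphorylates UMP and CMP, rose from 39.8 and 29.8 RPM to 69.2 and 63.6 RPM (0.93), and the mitochondrial adenylate kinase AK3 rose by 0.74. The guanylate kinase GUK1 was not called as deposited (0.14) but was called higher after scaling (0.45, limma adjusted p = 0.00183).

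Of 8 tested breakdown genes 5 fell and 0 rose by limma as deposited (5 and 1 after scaling). At an unadjusted p under 0.05, 0 were higher, and edgeR and DESeq2 each called 1 higher. After scaling 0 were higher without shCDCA8 replicate 1. The adenosine deaminase ADA fell by 1.42 on the log2 scale. The nucleotidases NT5C2 (-1.12) and NT5C (-0.97) also fell. All 4 tested equilibrative nucleoside transporters fell under both scalings, but only 3 after scaling without shCTRL replicate 2 or without shCDCA8 replicate 1. SLC29A1 fell most (from 19.9 and 22.3 RPM to 5.74 and 7.63 RPM, log2 fold change -1.53).

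Purine synthesis draws formyl groups from folate, and GART and ATIC consume them. Of 9 tested folate genes 6 fell and 0 rose by limma (4 and 0 after scaling), with 0 higher at an unadjusted p under 0.05, by edgeR or by DESeq2. The mitochondrial enzymes MTHFD1L (log2 fold change -2.52), MTHFD2 (-2.43) and SHMT2 (-2.09) had the largest falls of the list. The cytosolic enzymes MTHFD1 (-0.12, limma adjusted p = 0.391) and SHMT1 (-0.10, limma adjusted p = 0.425) were not called. The MTHFD2 to MTHFD1 ratio went from 2.36 and 1.93 in shCTRL to 0.442 and 0.384 in shCDCA8, a pair also chosen after its values were seen. Of 7 pentose phosphate genes, which supply the ribose, 3 fell and 0 rose by limma (2 and 1 after scaling), with 1 higher at an unadjusted p under 0.05, by edgeR and by DESeq2. PGLS (-0.81) and PGD (-0.66) fell.

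The transcription factors MYC (log2 fold change -1.34), MAX (-0.61) and ATF4 (-2.38) fell, and these 3 also fell after scaling, but only 2 of them without shCTRL replicate 1 or without shCDCA8 replicate 2. ATF4 stood at 662 and 677 RPM in shCTRL and at 131 and 125 RPM in shCDCA8, and MYC at 153 and 139 RPM in shCTRL and at 55.0 and 59.3 RPM in shCDCA8. Their part in the changes of the 10 enzymes was not tested.

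**Figure D4:**
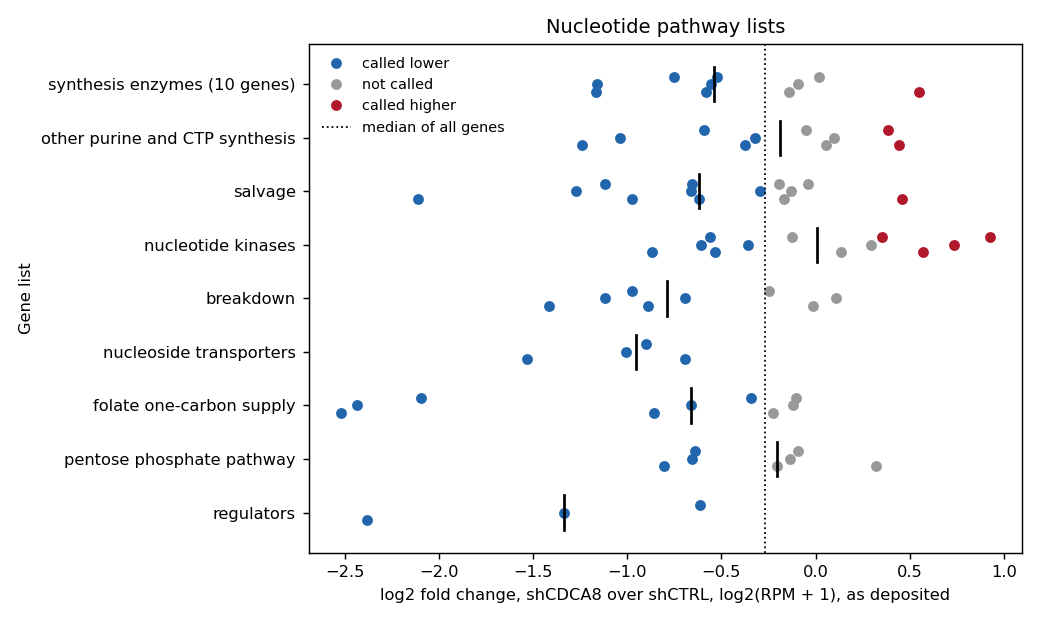
log2 fold change as deposited (x axis, log2(RPM + 1)) of each tested gene in 9 nucleotide-related lists, blue where called lower, red where called higher and grey where not called. Black bars mark list medians and the dotted line the median of all tested genes, -0.27. The synthesis enzymes spread from -1.17 to 0.55, and the folate list reaches -2.52.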

How the data were processed

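The authors deposited RPM values per gene for 4 polyA RNA libraries, and per the submitters' processing notes TopHat, HTSeq, edgeR, cutadapt and hg19 were used, with no versions or roles. The annotation and the strand setting are not stated there. Values above 0 were whole multiples of 1 read (100% within 0.01 of a read), so whole reads were recovered: library totals of 46709612 to 55289855 reads, of which 17406425 to 21920570 fell in gene rows. The main test was limma 3.58.1 (R 4.3.3; lmFit, then eBayes with trend, two-sided) on log2(RPM + 1), for genes reaching 1 RPM in 2 or more libraries. The fit was tested on simulated data. edgeR 4.0.16, where TMM factors were used, and DESeq2 1.42.0 on recovered reads served as alternatives, edgeR calling 7807 genes. Replicates of a group were not one library deposited again (chi-square of their reads 8.50 and 10.6 per degree of freedom). Poisson intervals cover counting error only.

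The members and lists were chosen with earlier results of these data known. Named genes are the 10 enzymes, CDCA8, isozymes, the 6 most abundant genes of each list and its 3 largest calls, plus genes overlapping a member. The values of 2 genes this rule would name are not reported here. Older symbols were looked up in the RefSeq synonyms, and genes in no row were not analysed here.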

Additional observations from a re-analysis of the deposited data

How the results depend on the processing

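PPAT, PFAS and CAD kept their direction and call in all 19 alternatives run. The number of tested genes called was 7852. Over the alternatives it ranged from 5974, of 8909 genes tested with a filter of 5 RPM, to 8901 with the replicate block. The 6 falls among the enzymes were counted as 6 in every alternative with a single change but DESeq2, which called 4 (ADSL at an adjusted p of 0.053 and IMPDH2 at 0.0656 were lost). With median-ratio scaling and a library left out, chosen after seeing the data, between 3 and 4 enzymes were lower, 3 of them without shCTRL replicate 2 or without shCDCA8 replicate 2, and between 1 and 2 were higher. With all 4 libraries, the count of higher enzymes was 1 as deposited, 3 with median-ratio scaling and with edgeR, and 4 with scaling to the reads in the gene rows. It was 2 with quantile normalization and 2 with DESeq2.

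PAICS turned from -0.14 to 0.17 with median-ratio scaling, 0.18 with scaling to gene rows, 0.11 with quantile normalization, 0.16 with edgeR and 0.17 with DESeq2, and to between 0.15 and 0.19 with median-ratio scaling and a library left out. ATIC turned from -0.09 to 0.22, 0.23, 0.12, 0.21 and 0.22 in the same order, and to between 0.19 and 0.25 with median-ratio scaling and a library left out (0.20 without shCTRL replicate 2). The scalings, edgeR and DESeq2 remove the shift of the whole table by construction. UMPS turned from 0.02 to -0.05 without shCTRL replicate 1, the lowest of its values with a library left out as deposited (-0.046 to 0.084). The share of higher calls over all genes went from 28.3% to 49.7% with median-ratio scaling.

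The labels do not say that libraries with the same replicate number belong together. Matched by number, their deviations correlated at 0.313 over genes, with only 2 pairs, and the sign depends on that numbering. A fit with the replicate block called 8901 genes and left 6 enzymes lower and 1 higher. With median-ratio scaling the replicate block gave 4 higher, PAICS at 0.17 and ATIC at 0.22. With 2 libraries per group and 208 reads or more behind each value of the enzymes and CDCA8, the number of libraries limits precision more than counting.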
